A study of Mus musculus with 6 samples.

Results

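The major histocompatibility region of mouse chromosome 17 was taken as the interval chr17:34000000-37500000 of the mm9 build, and all cytosines listed there in the deposited table were used, both in runs and singly. A run is a series of listed cytosines whose neighbours lie at most 100 bp apart. The interval held 2898 of the 652716 cytosines of the table, in 833 of its 249688 runs. Of these runs, 325 were single cytosines, 173 were pairs and 335 held at least 3 cytosines. The class II part, chr17:34300000-34600000, was treated apart and held 120 cytosines in 43 runs, which left 2778 cytosines in 790 runs for the rest of the region.

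The major histocompatibility complex (MHC) carries the genes of antigen presentation. Class I genes encode the heavy chains that show peptides from inside the cell to CD8+ T cells, and class II genes encode the paired chains with which dendritic cells, B cells and macrophages show peptides from outside the cell to CD4+ T cells. Between and around them lie genes for peptide cutting and transport, complement and cytokines, and many genes used in every cell, whose CpG-rich promoters are normally free of methylation.

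Methylation was measured by reduced representation bisulfite sequencing, which reads cytosines near MspI and TaqI cut sites and reports the share of reads in which a cytosine was protected from bisulfite. All samples are labelled as male C57BL/6J bone marrow cells. Day 0 cells (replicates 2 and 3) were uncultured marrow. Day 4 cells (replicates 1 and 2, named as common myeloid progenitors in the labels) and day 7 cells (replicates 1 and 4, named as bone marrow derived dendritic cells) were grown with supernatant of a transfected SP2/0 line that contains Flt3L, the cytokine that drives dendritic cell growth from marrow. Per the labels all live cells of the later cultures were taken without a sort, so each value is an average over a mixed population in which a change of cell types and a change of methylation within a type cannot be told apart. The labels do not say whether replicates came from separate animals or cultures, so the p-values cover no more than the variation among these libraries, which could be technical. The table holds no expression values, and cell type markers were not checked.

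Reads at listed cytosines ranged from 6736556 to 10242334 in the samples other than day 7 replicate 4, which had 3641141. The methylation level of a region is the percent of its summed reads that were methylated, and only runs of at least 3 cytosines, read at least 10 times in every sample, were used as regions. There were 269 of these in the MHC, 8 of them in the class II part. The median MHC region had 88 and 66 reads in the day 0 libraries, 85 and 55 in those of day 4, and 74 and 25 in those of day 7. Both day 7 libraries carried reads at X cytosines at 1.00 and 1.07 times their autosomal depth, against 0.650 to 0.688 times in the 4 other libraries, which goes against a shared male label. The methylated share of mitochondrial reads was 2.28% and 1.76% in the day 7 libraries against 0.490% to 1.17% in the others. Both values touch every comparison with day 7, and their part in the results was not tested.

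The table gives no genes. RefSeq promoter windows (GRCm38.p6, 250 bases before to 50 after a gene start) were therefore laid on the data by the distances between their CpGs, which placed 54 windows of 44 genes, and no coordinate was carried from 1 build to the other. Brd2, H2-D1 and H2-Q6 were placed by the spacing of at least 7 read CpGs, which 0.128% of windows from other chromosomes also met in this interval. H2-K1, H2-Q4 and H2-Q10 were placed on fewer CpGs and only between placed neighbours in RefSeq order, so their order is no check of the region's label. Shown here are the 250 bases before the start of 7 genes, with the CpGs that were read in the data in capitals: 3 class I genes and Brd2, a bromodomain protein that binds acetylated histones, as promoters with hardly any methylation, and Slc44a4, Vwa7 and Ddr1 as promoters with partial methylation.
H2-K1: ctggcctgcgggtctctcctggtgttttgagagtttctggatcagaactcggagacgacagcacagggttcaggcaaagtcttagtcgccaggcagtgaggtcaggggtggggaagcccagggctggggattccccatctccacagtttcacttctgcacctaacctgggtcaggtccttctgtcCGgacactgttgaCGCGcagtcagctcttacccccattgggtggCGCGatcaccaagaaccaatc
H2-D1: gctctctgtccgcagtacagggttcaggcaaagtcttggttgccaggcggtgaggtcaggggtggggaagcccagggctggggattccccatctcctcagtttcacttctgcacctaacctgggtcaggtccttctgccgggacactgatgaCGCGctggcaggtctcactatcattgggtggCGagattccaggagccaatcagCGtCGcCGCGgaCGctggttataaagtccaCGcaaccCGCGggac
H2-Q6: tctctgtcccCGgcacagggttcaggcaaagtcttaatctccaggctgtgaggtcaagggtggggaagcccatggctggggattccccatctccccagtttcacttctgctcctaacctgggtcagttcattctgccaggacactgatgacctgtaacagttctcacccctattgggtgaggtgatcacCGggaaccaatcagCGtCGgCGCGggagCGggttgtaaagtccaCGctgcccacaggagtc
Brd2: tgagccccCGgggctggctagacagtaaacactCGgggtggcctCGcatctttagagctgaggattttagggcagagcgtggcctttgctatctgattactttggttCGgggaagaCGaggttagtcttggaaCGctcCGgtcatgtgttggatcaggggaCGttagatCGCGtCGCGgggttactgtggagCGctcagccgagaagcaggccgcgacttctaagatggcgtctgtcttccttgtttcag
Slc44a4: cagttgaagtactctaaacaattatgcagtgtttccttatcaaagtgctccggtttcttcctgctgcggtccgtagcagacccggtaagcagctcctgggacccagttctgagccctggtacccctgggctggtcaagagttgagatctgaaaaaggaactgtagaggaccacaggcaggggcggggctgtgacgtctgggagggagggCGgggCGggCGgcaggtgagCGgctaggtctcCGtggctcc
Vwa7: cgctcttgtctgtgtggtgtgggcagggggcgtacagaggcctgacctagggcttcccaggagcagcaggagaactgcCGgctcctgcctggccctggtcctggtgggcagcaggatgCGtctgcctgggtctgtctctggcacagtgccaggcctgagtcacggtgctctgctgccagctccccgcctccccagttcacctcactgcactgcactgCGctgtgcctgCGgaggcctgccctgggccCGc
Ddr1: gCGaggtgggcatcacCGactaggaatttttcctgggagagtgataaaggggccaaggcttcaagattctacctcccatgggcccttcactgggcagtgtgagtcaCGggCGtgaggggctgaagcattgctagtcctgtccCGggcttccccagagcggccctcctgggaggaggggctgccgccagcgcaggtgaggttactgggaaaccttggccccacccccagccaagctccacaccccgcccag

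The 3 class I promoters are related sequences, and read mapping among such near-identical copies is uncertain. Motifs were searched as letters on both strands of the 250 bases before the gene start, in these genes and in all RefSeq windows. The letters GGGATTCCC, a form of the kappa B site of class I promoters, occurred in H2-K1, H2-D1 and H2-Q6 and in 0.301% of all 32851 RefSeq windows. An interferon response motif, searched as GAA, any 2 bases and GAAAC, occurred in the same 3 genes and in 1.45% of all windows. CCAAT was found in these 3 as well, and in 33.8% of windows. TGACG was found in H2-K1, H2-D1 and Slc44a4, against 17.8% of windows. The GC box letters GGGCGG were found in Slc44a4 and Ddr1, against 32.7% of windows. A match is a description of the sequence and not of binding.

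Classical class I promoters were nearly free of methylation at each time. H2-D1, the D heavy chain, had 16 of its CpGs read, and their level was 0%, 1.00%, 0%, 0%, 2.24% and 0.935% in day 0 replicates 2 and 3, day 4 replicates 1 and 2, and day 7 replicates 1 and 4, which is the order of all values below. These cytosines opened a region of 27 cytosines, chr17:35399941-35400205, that was read 195 to 549 times in a sample and stood at 0.364%, 0.752%, 0.273%, 0%, 1.74% and 1.03%. Both day 7 samples lay above both samples of each earlier time, with means 0.822 points over day 0 and 1.24 points over day 4, and edgeR gave an adjusted p of 0.501 for day 7 against day 0. The next region downstream, chr17:35400492-35400651 with 9 cytosines, had no methylated read at days 0 and 4 and 2.08% and 4.29% at day 7 (adjusted p = 0.110 against day 0). H2-K1, the K heavy chain, had 5 CpGs read, at 0%, 3.03%, 0%, 1.56% and 0%, and no reads in day 7 replicate 4.

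Other class I promoters were also low. H2-Q6, a gene of the non-classical Q group, had 8 CpGs read at 3.27%, 0.813%, 0.699%, 5.43%, 0% and 0%, so both day 7 samples were below the other 4, on 121 and 27 reads. H2-Q4 of the same group stood at 2.44%, 0%, 0%, 0%, 3.61% and 0% over 6 CpGs. H2-Q10, which encodes a secreted class I protein, was the highest of the class I promoters, at 6.86%, 2.17%, 13.4%, 6.67%, 4.30% and 0% over 6 CpGs that all lay downstream of the start. In H2-Q4 the times overlapped, and in H2-Q10 both day 4 samples were above both day 7 samples while day 0 overlapped with each.

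Promoters of chromatin and transcription genes in the region had next to no methylation. Brd2 was read at 13 CpGs and stood at 1.5%, 2.07%, 0.379%, 0%, 1.28% and 2.74%. Ring1, a ubiquitin ligase of Polycomb repressive complexes, had no value above 0.962% over 7 CpGs. Ehmt2, a histone H3 lysine methyltransferase, reached 3.85% in day 7 replicate 4 and 2.92% in day 4 replicate 1. Pbx2, a homeodomain factor, had 3.33% in day 4 replicate 1 and 0% elsewhere, and both windows of Rxrb, a retinoid X receptor, lay between 0% and 2.90%. The promoter shared by BC051226 and Daxx, a histone H3.3 chaperone, lay in the region chr17:34046117-34046250 with 13 cytosines. Its levels were 0%, 0%, 0.412%, 0.606%, 2.48% and 2.08%, which are ordered by day without overlap. Its adjusted p for day 7 against day 0 was 0.0507 by the edgeR likelihood ratio test (0.0348 with at least 20 reads a region). It was 0.114 with autosomes fitted alone, 0.178 with edgeR's quasi-likelihood test and 0.0840 with limma.

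Of the 54 placed windows, 50 windows of 40 genes had a mean under 20%, 4 lay between 20% and 80%, and 0 lay above 80%. RefSeq lists 197 windows of 154 genes from the first to the last placed one. Placement needed at least 4 read CpGs in 300 bases, so windows with fewer were left out by the rule. The counts therefore do not describe MHC promoters in general. Several windows share cytosines, such as both windows of H2-K1 and those of BC051226 and Daxx. The counts and medians over windows are therefore not over separate promoters. In 41 windows of 34 genes no sample was above 5%. Among them were Rps18, a ribosomal protein, Csnk2b, the regulatory subunit of casein kinase, Neu1, the lysosomal sialidase, and the ubiquitin ligase genes Trim26 and Trim39. Over the 50 low windows the median of the day means was 0.536% before culture, 0.620% at day 4 and 1.75% at day 7. The near-identical inducible heat shock genes Hspa1a and Hspa1b match the same pair of places by CpG spacing and order. No other criterion was used to tell them apart. Those places stood between 0% and 7.14%.

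**Figure D1:**
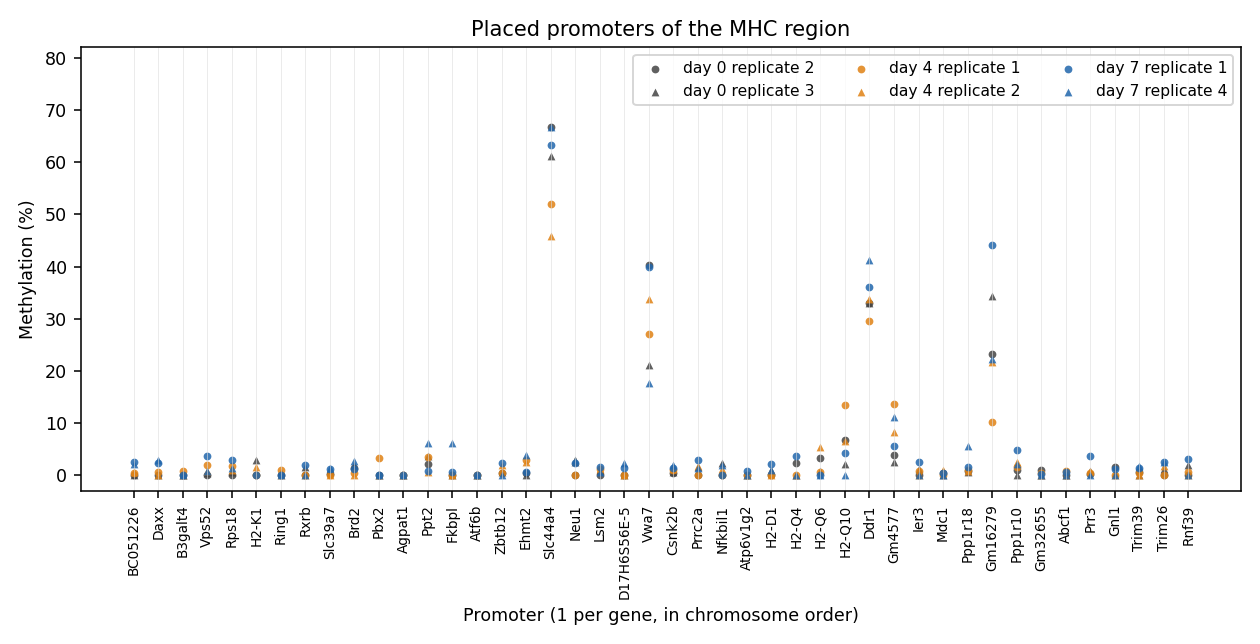
Methylation of 1 placed promoter window per gene, in chromosome order, with 1 symbol per sample (percent of reads methylated). Most promoters lie below 5% in each sample, and Slc44a4, Vwa7, Ddr1 and Gm16279 stand between.

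The 4 partly methylated promoters were those of Slc44a4, a solute carrier of the choline transporter-like family, Vwa7, Ddr1, a receptor tyrosine kinase that binds collagen, and the predicted gene Gm16279. Their windows held 8 to 13 CpGs, with a median of 11, against 9 to 47 and a median of 23.5 in the low windows. All 4 were placed on fewer than 7 read CpGs, between placed neighbours in RefSeq order. How often windows of other chromosomes meet that weaker rule was not measured. Slc44a4 stood at 66.7%, 61.1%, 52.0%, 45.8%, 63.3% and 66.7% over 6 CpGs, and both day 4 samples were below the samples of day 0 and day 7. It had 6 reads in day 7 replicate 4 and was not tested. Vwa7 stood at 40.3%, 21.1%, 27.2%, 33.8%, 40.0% and 17.6%, so that the 2 samples of day 0 and of day 7 differed more between themselves than the times did.

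Ddr1, for which 1 of 4 RefSeq windows was placed, differed least of the 4 between samples, at 33.0%, 33.0%, 29.6%, 33.8%, 36.1% and 41.2% over 5 CpGs. The region around them, chr17:35839096-35839253 with 6 cytosines, gave 37.8%, 38.0%, 37.3%, 36.4%, 41.3% and 50%, where the last value rests on 20 reads. Its adjusted p was 0.839 for day 7 against day 0. Within the promoter the level was not even. The cytosine 248 bases before the start was at 58.3% to 83.3% in the 6 samples, the next, at 233 bases, at 21.4% to 37.5%, and the nearest to the start, at 107 bases, at 0% to 22.2%. Gm16279 showed the same kind of step, with 28.6% to 80% at 226 bases before the start and 0% to 10.0% at 46 bases after it, on 3 to 16 reads each.

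**Figure D2:**
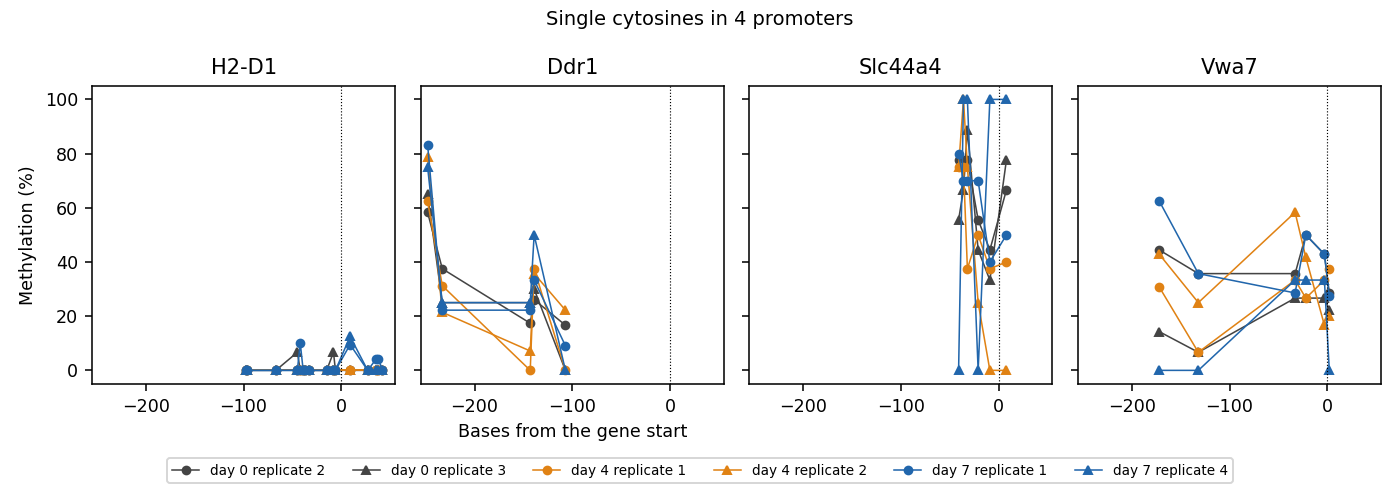
Methylation of single cytosines in 4 promoters (percent of reads) against their distance from the gene start in bases, with 1 line per sample. H2-D1 lies near 0 throughout, Ddr1 is highest at its outermost cytosine, and Slc44a4 and Vwa7 hold partial methylation up to the start.

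Between the placed promoters of Brd2 and Pbx2, RefSeq lists 26 genes, 19 of them protein coding, and these include the class II chains H2-Ab1, H2-Aa, H2-Eb1 and H2-Eb2, the peptide loading chains H2-DMa, H2-DMb1 and H2-DMb2, and Tap1, Tap2, Psmb8 and Psmb9, which cut and transport peptides. None of their windows met the rule for placement by CpG spacing on the read cytosines. The span from Brd2 to Pbx2 (first read cytosines at 34256902 and 34729139) reaches beyond both ends of the class II part. Some of these genes may therefore lie in the rest of the region. All 54 placed windows, those of Brd2 and Pbx2 included, shared 1 distance between the builds. This distance would locate the class II gene starts against the runs, but it was not used for that. Which runs lie at class II promoters was therefore not tested. The runs of the class II part are given by position, and no run is assigned to a gene. The same holds for Tapbp, Tnf, Lta, Ltb, C2, Pou5f1 and Notch4, which were not analysed here.

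Class II runs spread over low, middle and high levels, and the longer ones were mostly low or high. Of the 43 runs, 14 had a mean under 20%, 13 lay between 20% and 80%, and 16 lay above 80%. The middle group was made mostly of short runs, with 8 single cytosines, 4 pairs and 1 longer run. The run with most cytosines, chr17:34529263-34529432 with 16, stood at 0%, 1.68%, 2.21%, 1.44%, 2.97% and 13.8%. The last value rests on 4 methylated of 29 reads in day 7 replicate 4, with a 95% Wilson interval of 5.50% to 30.6%, while the other samples had 170 to 226 reads. Both day 7 samples were above the other 4, and the adjusted p was 0.229 versus day 0 and 0.509 versus day 4. The 0% at day 0 allows a level of up to 1.76% at 3 reads of 170 (intervals and limits cover counting error only, since the labels give no molecular identifiers).

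The other low runs tested were below 10% in each sample. The run chr17:34334491-34334706 with 12 cytosines lay between 0.508% and 2.13%, and chr17:34401691-34401765 with 10 lay between 0% and 2.50%. The run chr17:34324939-34325119 with 7 cytosines stood at 0%, 0%, 0.735%, 0%, 1.79% and 0%. In chr17:34341656-34341792, with 4 cytosines, no methylated read was seen at days 0 and 4, and day 7 had 2.50% and 8.33%, which are 1 read of 40 and 1 read of 12 (adjusted p = 0.331 against day 0). Some short low runs were less even. The single cytosine at 34308024 had no methylated read in the 4 samples of days 0 and 4 and stood at 28.6% and 33.3% at day 7, on 7 and 3 reads, and the single cytosine at 34317613 was at 20% in day 4 replicate 2, on 5 reads, and at 0% elsewhere. Neither was tested.

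Before the run of 12 cytosines lay short runs of uneven level. The pair at chr17:34333681-34333703 stood at 4.17%, 7.41%, 10.5%, 22.2%, 4.17% and 0%, and both day 4 samples were above the other samples. The next pair, chr17:34333830-34333875, stood higher, at 17.9%, 28.6%, 34.0%, 38.9%, 21.1% and 41.2%. The run chr17:34334355-34334377 with 3 cytosines was back at 2.22% to 16.7%. Of the 2 class II cytosines read at least 10 times in every sample, at 34333703 and 34333830, neither passed the test, with adjusted p of 0.773 and 0.859 for day 4 against day 0.

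Methylated runs lay on both sides of these. The run chr17:34352338-34352397 with 5 cytosines stood at 89.3%, 84.7%, 91.9%, 95.6%, 100% and 100%, with 20 to 91 reads. The samples were ordered by day without overlap, and no unmethylated read was left at day 7, which allows up to 3.66% and 15.0% unmethylated reads in its 2 samples. The mean was 87.0% ± 3.21 (SD, n = 2) at day 0 and 100% at day 7, a difference of 13.0 points with an adjusted p of 0.0187 by the edgeR likelihood ratio test. It was the 1 MHC region of 262 (0.382%) with an adjusted p below 0.05, against 0.838% of all 56105 regions and 0.355% of autosomal regions in this comparison, and it did not reach the 20 points that a call required. In the other comparisons 0 MHC regions were below 0.05, against 0.00356% (day 4 versus day 0) and 0.729% (day 7 versus day 4) of all regions. The adjusted p was 0.0780 with autosomes fitted alone, 0.113 with edgeR's quasi-likelihood test and 0.170 with limma, and it was 0.0512 without day 0 replicate 2, 0.149 without day 0 replicate 3 and 0.375 without day 7 replicate 1. It was between 0.0118 and 0.0459 under the other alternatives run.

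The run chr17:34373335-34373383 with 3 cytosines stood at 86.4%, 64.0%, 100%, 92.3%, 83.7% and 81.2%. Day 4 lay above the other times without overlap, 21.0 points over day 0, with an adjusted p of 0.549. The 6 cytosines at chr17:34503393-34503516 were at 81.8% to 100%, with 2 reads in day 7 replicate 4.

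Short runs of the class II part held the widest spreads, and those named here were not tested, because they were pairs, or had under 10 reads in a sample, or both. The pair chr17:34451385-34451389 stood at 31.8%, 41.7%, 50%, 53.8%, 66.7% and 80% on 5 to 30 reads, ordered by day without overlap. Its neighbour, chr17:34451265-34451276, stood at 86.4%, 68.2%, 88.5%, 70.8%, 96.2% and 100%, with only the day 7 samples above the others. The first pair of the part, chr17:34300483-34300533, had 69.2% and 63.2% at day 0 and 85% to 100% in the 4 later samples. The 3 cytosines at chr17:34322924-34322946 went the other way at day 4, with 71.0% and 48.7% before culture, 42.3% and 30.8% after 4 days and then 53.6% and 87.5%, where the last value rests on 8 reads.

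**Figure D3:**
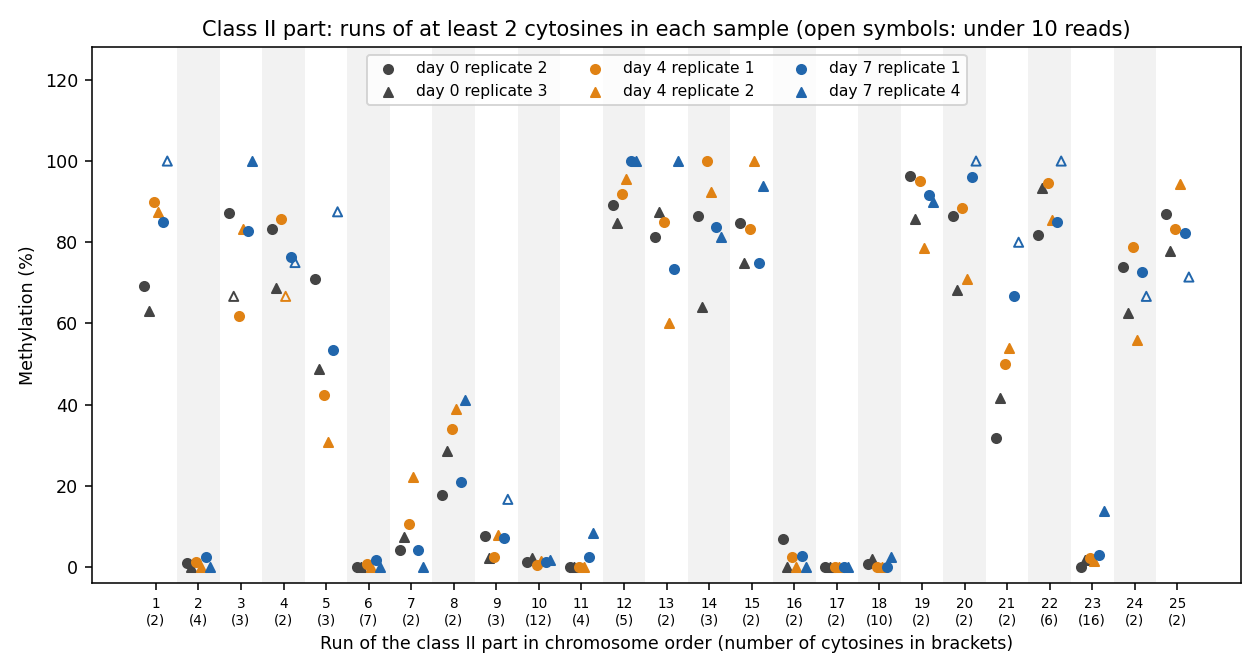
Methylation (percent of reads) of the 25 class II runs with at least 2 cytosines, in chromosome order, with 1 symbol per sample and open symbols for under 10 reads. Runs of at least 4 cytosines lie below 15% or above 80% in each sample, and shorter runs fill the range between.

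No region of the MHC was called in any comparison, where a call needed an adjusted p below 0.05 and a difference of at least 20 points between group means. The test was made on 262 MHC regions, since 7 more had no methylated read in any sample. For day 4 against day 0 the count was 0 of 262, against 0.00178% of all 56105 regions tested. For day 7 against day 0 it was 0 against 0.497%, and for day 7 against day 4 it was 0 against 0.451%. On autosomes alone the shares of called regions were 0.132% and 0.102% in these last 2 comparisons. The quasi-likelihood test and limma also called 0 MHC regions in each comparison.

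At an unadjusted p below 0.05 there were 24, 38 and 38 MHC regions in these comparisons (day 4 versus day 0, day 7 versus day 0, day 7 versus day 4), which is 9.16%, 14.5% and 14.5% of those tested. The same shares over all regions were 6.6%, 12.9% and 11.4%. The class II part held 1, 4 and 3 of these regions among its 8. With the quasi-likelihood test the MHC counts were 13, 18 and 21, and with limma they were 12, 37 and 37. The comparisons share samples, so their counts are not independent.

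Regions whose 2 groups did not overlap made up shares near those of the whole table. For day 4 against day 0, 47 MHC regions (17.9%) were higher and 29 (11.1%) lower, against 20.6% and 10.3% of all regions. For day 7 against day 0, 77 (29.4%) were higher and 14 (5.34%) lower, against 29.8% and 7.03%. For day 7 against day 4, 69 (26.3%) were higher and 22 (8.4%) lower, against 24.4% and 10.3%.

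Single cytosines were tested as well. Of the 119 MHC cytosines read at least 10 times in every sample, 79 could be tested and 0 were called, against 0%, 0.104% and 0.123% of all 10559 cytosines tested for the 3 comparisons in the same order. At an unadjusted p below 0.05 there were 2, 6 and 5 of them, against 3.71%, 7.58% and 6.23% of all cytosines. The lowest adjusted p was 0.531, for the cytosine 34194122 between day 7 and day 0, which stood at 0%, 0%, 10.3%, 0%, 14.3% and 10.0%.

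No large difference between group means in the rest of the MHC passed the test. The 4 cytosines at chr17:35973108-35973159 had the widest, at 35%, 55%, 70%, 75%, 68.8% and 91.7% on 12 to 40 reads, with a difference of 35.2 points between day 7 and day 0 and an adjusted p of 0.285. This region was singled out after its values were seen. The 3 cytosines at chr17:36000532-36000558, likewise singled out, were at 86.1% to 97.0% in 5 samples and at 41.7% in day 7 replicate 4, on 12 reads. They were called lower at day 7 than at day 4 only when day 7 replicate 1 was left out (adjusted p = 0.0486), which leaves that 1 sample for day 7.

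Where each sample had at least 20 reads and the groups did not overlap, chr17:34231652-34231759 with 5 cytosines had the largest difference downwards at day 4. It stood at 40.7%, 28.1%, 13.0%, 14.0%, 25.0% and 33.3%, 20.9 points lower at day 4 than at day 0 (adjusted p = 0.625). The 6 cytosines at chr17:34769985-34770129 stood at 28.0%, 35.0%, 18.0%, 11.8%, 11.0% and 21.6%, below day 0 at both later times. In the other direction, chr17:34275092-34275296 with 9 cytosines stood at 67.7%, 72.9%, 86.4%, 85.2%, 85.7% and 82.1%, above day 0 in all 4 cultured samples (adjusted p = 0.727 at day 4 and 0.445 at day 7). The region chr17:35777461-35777511 was 18.9 points higher at day 7 than at day 0 (adjusted p = 0.282), with 71.7% and 70.3% at day 0 and 94.7% and 85% at day 7. For day 7 against day 4, chr17:34808934-34808980 with 7 cytosines differed most, 23.2 points higher (adjusted p = 0.398), with 62.9% in day 7 replicate 4 against 21.4% to 38.5% in all other samples.

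**Figure D4:**
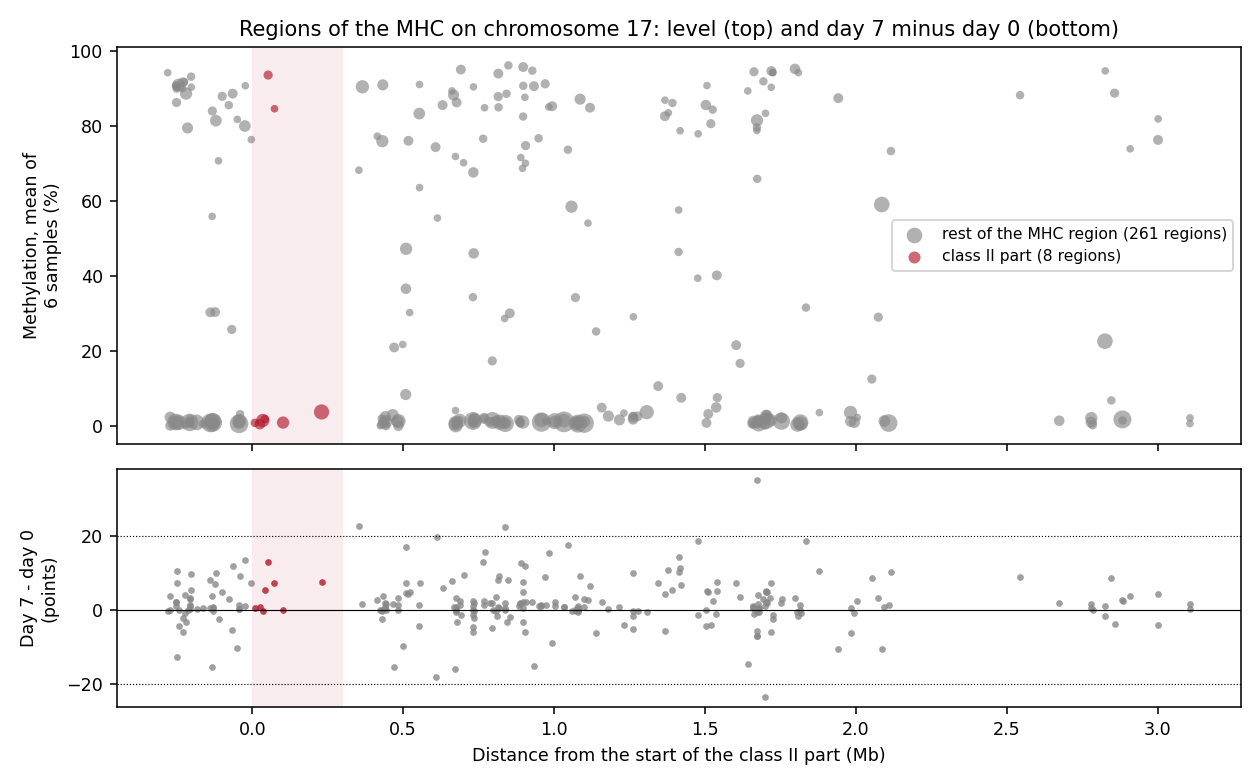
Regions of the MHC with at least 10 reads in each sample, by distance from the start of the class II part in Mb: mean methylation of the 6 samples (top, percent, symbol size grows with the number of cytosines) and day 7 minus day 0 (bottom, points, dotted lines at 20). The class II part is shaded, most large symbols lie near 0, and 4 regions lie beyond the dotted lines, with 0 called.

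The longest runs of the rest were unmethylated, and partly methylated ones were fewer. The run chr17:35332758-35333120 had 31 cytosines, the most in the MHC, and stood at 0.756%, 0.375%, 0.670%, 1.22%, 1.61% and 1.53%. The region of the Csnk2b promoter, chr17:35258228-35258638 with 27 cytosines, stood at 0.249%, 0.622%, 0.871%, 0.784%, 1.56% and 1.82%, without overlap between times (adjusted p = 0.389 for day 7 against day 0). Both other low regions with an adjusted p below 0.05 under an alternative lay at no placed promoter. The 21 cytosines at chr17:36053337-36053641 stood at 0.198%, 0%, 0.932%, 1.94%, 2.64% and 1.61%. Their adjusted p for day 7 against day 0 was 0.0582, or 0.0377 with at least 20 reads a region and 0.0464 with gaps of up to 200 bp. No region of the rest was below 0.114 with autosomes fitted alone, 0.146 with the quasi-likelihood test or 0.0840 with limma in this comparison. The 25 at chr17:34255936-34256312 stood at 0.611%, 0.641%, 0%, 0%, 1.84% and 0%, with an adjusted p of 0.0824 for day 7 against day 4. It was 0.159 with autosomes fitted alone, 0.206 with the quasi-likelihood test and 0.283 with limma. It fell below 0.05 only without day 7 replicate 4, which leaves 1 sample for day 7. The difference rests on day 7 replicate 1, since replicate 4 was at 0%. None of these reached 20 points. Of the 141 low regions of the MHC, 39 lay at a placed promoter and 102 did not. Of the 55 regions between 20% and 80%, 53 lay at no placed promoter. Only 54 of the 197 RefSeq windows from the first to the last placed one were placed, so these regions may lie at unplaced promoters.

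Partial methylation was kept over long runs at a few places. The 17 cytosines at chr17:36385870-36386145 stood at 59.1%, 69.4%, 56.9%, 61.2%, 59.5% and 48.2%, and the 10 at chr17:34809538-34809690 at 40.5%, 47.8%, 46.7%, 50.8%, 42.9% and 54.7%. Times overlapped in both. The 17 cytosines at chr17:37125434-37125733 stood at 12.5% to 21.4% in 5 samples and at 43.2% in day 4 replicate 2, on 146 reads, so that 1 library alone was high. The 10 cytosines at chr17:35357729-35357902 had both their lowest and their highest level at day 4, at 43.7% and 75.0% in its 2 samples.

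The class II part and the rest were compared by the share of low, middle and high regions. Of the 8 class II regions 6 (75%) were under 20%, 0 between and 2 (25%) over 80%. In the rest 135 (51.7%) were low, 55 (21.1%) middle and 71 (27.2%) high, and on the other autosomes the shares were 42.6%, 21.7% and 35.7%. With 8 regions, the class II shares are a description. The mean region level of the class II part was 22.3%, 19.3%, 24.6%, 23.9%, 24.3% and 26.0% in the 6 samples. Class II minus rest was -16.1 to -11.5 points, negative in each sample. Over the reads of all listed cytosines, short runs included, the class II part was at 33.7%, 31.05%, 29.95%, 36.8%, 36.3% and 40% and the rest at 31.7%, 31.4%, 33.4%, 32.6%, 34.4% and 31.3%, so that the class II part was then the higher in 4 of the 6 samples.

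Over the rest of the MHC, the regions averaged 35.8% ± 0.629 (SD, n = 2) before culture, 36.6% ± 0.902 (n = 2) after 4 days and 37.7% ± 0.361 (n = 2) after 7 days. Day 7 was 1.93 points above day 0, with both day 7 samples above both day 0 samples (two-sided exact permutation p = 0.333, the smallest that 2 samples against 2 can give). The other autosomes showed a difference of 2.39 points in the same comparison. In the class II part the day 7 mean was 4.33 points above day 0 (exact permutation p = 0.333). Class II minus rest moved by 2.66 points from day 0 to day 4, by 2.40 from day 0 to day 7 and by -0.257 from day 4 to day 7, with no p below 0.333 possible. The first was 1.59 without day 0 replicate 3 and 0.780 with at least 20 reads a region, and the second was 1.33 without day 0 replicate 3 and 1.32 without day 7 replicate 4.

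Low regions were mostly higher at day 7. In the rest of the MHC, 100 of 135 low regions had a higher mean at day 7 than at day 0, 24 a lower and 11 an equal one, with a median difference of 1.00 points. They averaged 1.29% ± 0.2 (SD, n = 2) before culture, 1.62% ± 0.0984 (n = 2) after 4 days and 2.67% ± 0.143 (n = 2) after 7 days. Low regions of the other autosomes stood at 2.25%, 2.29% and 3.54%. Day 7 was thus 1.29 points above day 0 there, against 1.375 points in the rest of the MHC. The share of low regions outside the MHC that were higher is not given here. The mitochondrial level given above was also higher in the day 7 libraries, and its part in this difference was not tested. The middle regions of the rest stood at 53.6%, 53.9% and 57.7%, with a median gap of 8.20, 6.97 and 10.4 points between the 2 samples of a time, and the high regions at 87.6%, 89.5% and 88.9%.

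**Figure D5:**
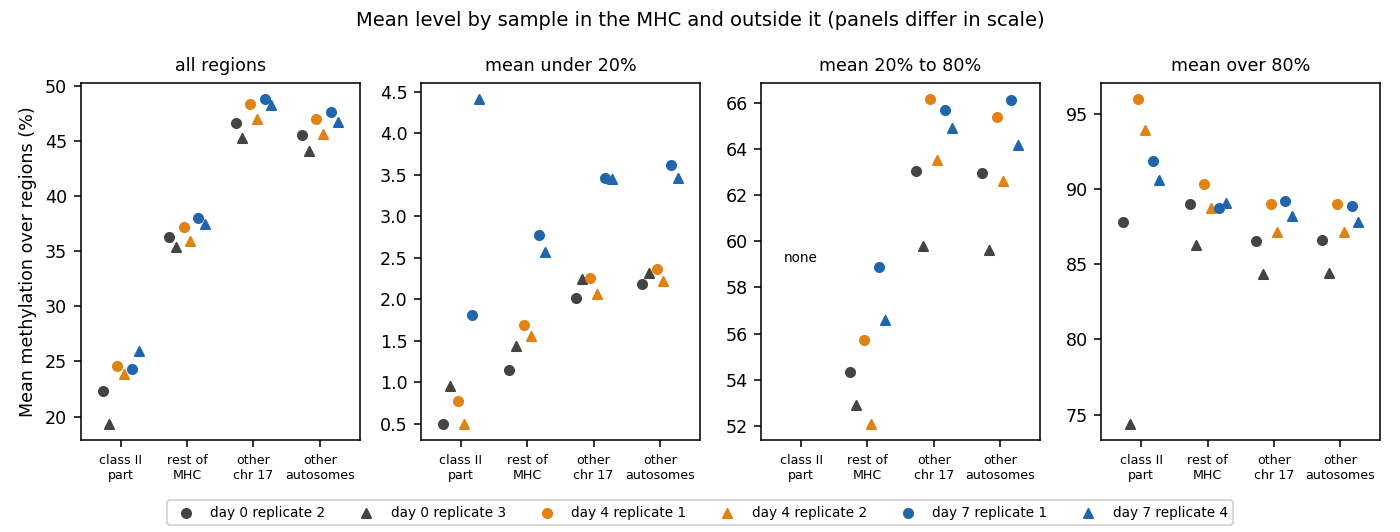
Mean methylation over regions (percent) in each of the 6 samples, for the class II part, the rest of the MHC, other chromosome 17 regions and other autosomes, for all regions and by class of the mean level. Day 7 symbols stand highest in the low class of each set, and the class II part has no region in the middle class.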

How the data were processed

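The deposited table gives, per the file headers, the methylated fraction and the counts of unmethylated and methylated reads for each cytosine and sample. Per the submitters' processing notes the authors used Bismark and Bowtie2 on mm9, (versions: not given in the sources used here). A check of the table found that the deposited fraction equalled methylated over all reads, and the smallest sum of reads over a group was 10, a filter of the authors on groups. Methylated and unmethylated counts were summed per region and tested with edgeR 4.0.16 (R 4.3.3; likelihood ratio test, 1 model over all 6 samples, Benjamini-Hochberg over the whole table). limma 3.58.1, with a pseudocount of 0.5, and edgeR's quasi-likelihood test were alternatives. The edgeR script was run on simulated data, and the share of planted changes it recovered is not given here. How often a real difference would be missed is therefore not stated. Samples were grouped by title and day in culture. Members, gene lists and tests were chosen with earlier results of these data known. Named regions were those with the largest differences without overlap (at least 20 reads in each sample), the most cytosines, or a middle level, and single cytosines with the lowest adjusted p. RefSeq windows were placed where at least 7 listed cytosines, or 4 between placed neighbours in RefSeq order, matched CpG spacings. Of 31225 windows of other chromosomes, 40 (0.128%) also met the first condition, and 1 window out of order was dropped.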

Additional observations from a re-analysis of the deposited data

How the results depend on the processing

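Counts of called regions and cytosines kept their value in 115 of 117 recomputations. The exceptions were 1 class II call for day 7 against day 0 with a minimum of 10 points, and 1 call in the rest of the MHC for day 7 against day 4 without day 7 replicate 1 (range 0 to 1 over samples left out). Mean levels kept their direction in 53 recomputations. The 7 others reversed small differences: class II day 7 minus day 4 was -0.530 points over single cytosines, the rest of the MHC was -0.156 in the same comparison with pooled reads, and class II minus rest was -0.469 for day 4 against day 0 with pooled reads. For day 7 against day 4, class II minus rest was 2.15 with at least 20 reads a region, 4.94 with pooled reads, and -1.33 to 0.818 with 1 sample left out. The causes were not tested. No MHC region was left with at least 10 reads at each cytosine, so that setting gave no value. No paired analysis was possible because day 0 and day 4 share only replicate number 2, day 4 and day 7 share only number 1, and day 0 and day 7 share none. Depth limits day 7 replicate 4 most, with a median of 25 reads per MHC region.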
